A study of Homo sapiens with 12 samples.

Results

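The 43 genes described here encode the machinery that copies DNA, the enzymes that supply its nucleotides and the E2F factors and E cyclins that open S phase. They were taken by symbol from a fixed list, and all 43 were found among the 20307 genes of the expression table. All 43 also passed the filter on low counts in every fit, but in THP-1 FAM111B and E2F8 did so only through the DCBLD2-labelled libraries, where they were higher. The table holds RNA sequencing of 12 libraries, 3 for each of 4 groups, from established human cell lines. The line H1299 comes from a non-small-cell carcinoma of the lung. THP-1 comes from a monocytic leukaemia and becomes macrophage-like when given the phorbol ester PMA. H1299 cells carried the genotype label DCBLD2 overexpression (DCBLD2-labelled H1299 below) or WT (control-labelled H1299), and no label names an empty construct for the WT cells. THP-1 cells, all of genotype WT, had PMA for 24 h and were then kept for 48 h with material of DCBLD2 H1299 cells (DCBLD2-labelled THP-1) or of control H1299 cells (control-labelled THP-1). The labels name supernatant where the design names co-culture, and it is not known here which was used. There was no THP-1 group without H1299 material, and none without PMA.

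The DCBLD2 transcript went against the H1299 labels, so directions are given for labels and not for overexpression. DCBLD2 had 105, 98.2 and 92.5 TPM (a level scaled for transcript length and library size) in DCBLD2-labelled H1299, against 247, 148 and 196 TPM in control-labelled H1299. In THP-1 it had 6.53, 6.61 and 6.27 TPM in the DCBLD2-labelled libraries and 11.4, 12.2 and 12 TPM in the control-labelled ones. Estimated reads per library ran between 14578887 and 23388187 in H1299 and between 18606739 and 26787853 in THP-1. Replicates differed much less in THP-1 than in H1299, with a common coefficient of variation of 1.96% in THP-1 and 13.3% in H1299, so a small change was called far more readily in THP-1. Of 16 myeloid marker genes, 15 averaged over 1 TPM in both THP-1 groups (CYBB did not). In H1299 the list averaged over 1 TPM for 2 genes in the DCBLD2-labelled and 3 in the control-labelled group, PTPRC and AIF1 were at 0 in both groups, and CD33 was also at 0 in the control-labelled one. The summed level of the 16 was 202.1 to 205.8 TPM in DCBLD2-labelled and 143.4 to 145.4 TPM in control-labelled H1299, most of it CD68 (197, 200.5 and 196 TPM in DCBLD2-labelled and 138, 135 and 136 TPM in control-labelled H1299).

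A chromosome is copied once per division because the steps are kept apart. In G1 the origin recognition complex, CDC6 and CDT1 load the MCM2-7 helicase on origins, and in S phase CDC45 and the GINS complex switch it on. DNA polymerase alpha with primase starts each strand, the RFC complex loads the PCNA clamp, and polymerases delta and epsilon extend the strands. Most of these genes are known targets of E2F factors, which RB-family proteins hold back until G1 cyclin kinases release them. PMA is known for taking THP-1 cells out of the division cycle as they differentiate.

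Because E2F control is the textbook link between these genes, their promoter sequences were searched for the E2F-type motif TTTNNCGC on both strands, in windows from 250 bases before to 50 bases after each RefSeq start. Promoters were found for 37 of the 43 genes, and 23 of the 37 (62.2%) held a match, compared with 8.2% of all 27305 genes with a promoter. The CHR-type motif TTTGAA, known from promoters of mitotic genes, gave the opposite picture: 2 of 37 (5.4%) held it, compared with 25 of 36 (69.4%) genes of a G2 and M list and 18.2% of all genes. The CCAAT box was found in 56.8% of the 37 and in 39.7% of all genes. The 4 promoters shown are those with an E2F-type match whose genes had the smallest p-values in THP-1, on the chromosomes used for sequences. They are CDT1 (chr16:88803539-88803838, plus strand), TYMS (chr18:657403-657702, plus strand), E2F1 (chr20:33686336-33686635, minus strand) and MCM7 (chr7:100101348-100101647, minus strand; of its 3 windows the one with most matches), in GRCh38.p14 from RefSeq. Capitals mark bases of a match on either strand.
CDT1: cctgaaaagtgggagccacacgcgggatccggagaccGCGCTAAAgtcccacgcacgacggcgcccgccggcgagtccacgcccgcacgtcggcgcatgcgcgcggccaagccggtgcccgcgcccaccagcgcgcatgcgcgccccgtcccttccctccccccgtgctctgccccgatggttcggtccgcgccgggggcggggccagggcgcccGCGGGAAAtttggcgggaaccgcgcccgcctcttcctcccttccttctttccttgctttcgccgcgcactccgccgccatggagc
TYMS: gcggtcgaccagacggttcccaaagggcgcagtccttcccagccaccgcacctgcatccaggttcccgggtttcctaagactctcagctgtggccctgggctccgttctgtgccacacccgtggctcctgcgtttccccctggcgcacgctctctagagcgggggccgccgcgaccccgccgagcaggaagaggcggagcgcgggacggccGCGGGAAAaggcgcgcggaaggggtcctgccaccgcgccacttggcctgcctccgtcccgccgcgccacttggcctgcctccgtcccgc
E2F1: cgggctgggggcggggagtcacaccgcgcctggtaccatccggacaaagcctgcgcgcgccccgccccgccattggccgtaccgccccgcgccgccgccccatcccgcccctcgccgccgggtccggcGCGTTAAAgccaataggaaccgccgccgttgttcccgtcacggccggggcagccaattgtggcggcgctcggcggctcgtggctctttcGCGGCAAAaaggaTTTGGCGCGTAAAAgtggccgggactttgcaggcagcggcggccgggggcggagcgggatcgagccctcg
MCM7: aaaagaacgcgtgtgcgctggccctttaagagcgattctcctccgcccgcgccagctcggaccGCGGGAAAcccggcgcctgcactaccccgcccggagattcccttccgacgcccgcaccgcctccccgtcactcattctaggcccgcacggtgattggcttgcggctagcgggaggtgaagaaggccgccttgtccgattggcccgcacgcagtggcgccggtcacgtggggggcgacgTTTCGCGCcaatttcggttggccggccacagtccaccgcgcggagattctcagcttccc
In CDT1 the matches began 213 and 35 bases before the start site, and in TYMS the single match began 39 bases before it. E2F1 held 4 matches, of which 3 began within 33 bases before the start and 2 overlapped each other. MCM7 held one at 187 bases and another at 9 bases before its start. A match is a description of these letters and not a bound site. TK1, RRM1 and RRM2, among other members, held none in these windows.

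**Figure D1:**
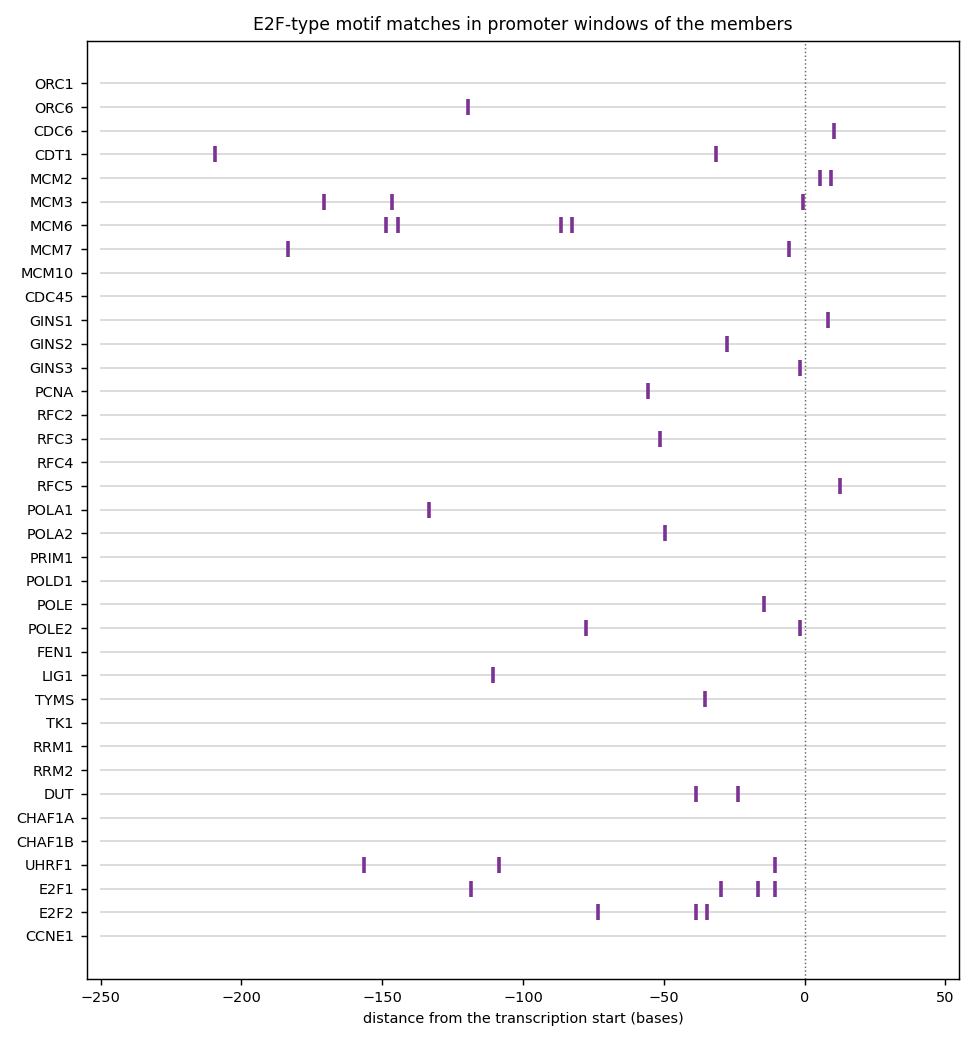
Distance from the transcription start in bases (x axis) of each E2F-type motif match (purple bars) in the promoter windows of the 37 genes with a RefSeq promoter (rows). Of the 37 genes 23 hold at least 1 match, and E2F1 holds 4.

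In THP-1 the replication genes were mostly higher in the DCBLD2-labelled libraries, and in H1299 part of them were lower in the DCBLD2-labelled libraries. Of 43 genes, 35 were higher and 2 lower in DCBLD2-labelled THP-1 at an adjusted p under 0.05, and 6 were not called. That is 81.4% higher and 4.65% lower, beside 34.5% and 33.6% of the 13120 genes tested. The median log2 fold change of the 43 was 0.41, beside 0.00 over all genes. In DCBLD2-labelled H1299, 0 were higher and 11 lower, and 32 were not called. That is 25.6% lower, beside 10.3% higher and 10.6% lower among the 12773 genes tested, with a median of -0.23 against 0.00 over all genes. At an unadjusted p under 0.05 edgeR put 1 gene higher (RRM1) and 17 lower, and neither DESeq2 nor limma called any higher. The 11 were GINS2, FEN1, PCNA, UHRF1, DUT, MCM3, E2F1, CHAF1B, TK1, RFC5 and MCM2. Over all 43 genes, the TPM groups stood apart for 31 above and 2 below in DCBLD2-labelled THP-1, beside 29.9% and 35% of all genes tested. In DCBLD2-labelled H1299 they stood apart for 1 above and 14 below, beside 17.6% and 19.9%.

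The H1299 count rested on single libraries, while that of THP-1 did not. Without replicate 2 of DCBLD2-labelled H1299 only GINS2 remained called, and without replicate 3 of either H1299 group 7 (DCBLD2-labelled) and 6 (control-labelled) were lower. Without replicate 1 of control-labelled H1299 there were 18. In the fits that gave 7, 6 and 18, the lower calls over all genes were 1032 of 12938, 901 of 12913 and 1333 of 12894. Calls over all genes moved as well: without replicate 2 of DCBLD2-labelled H1299, 184 genes were higher and 330 lower of 12915 tested, against 1313 and 1356 with all libraries. PCNA was then at -0.47 (adjusted p = 0.0573) and MCM3 at -0.46 (adjusted p = 0.0720), so these kept most of their size. Without any single THP-1 library, 34 to 36 genes were higher in DCBLD2-labelled THP-1. When the THP-1 test was given the common spread of the H1299 libraries, 22 genes were still higher. POLD1, POLA2, LIG1 and RRM1 were among those no longer called. Among all 13120 genes tested, 2358 were then higher and 2173 lower. The H1299 libraries also differed along the base composition of transcripts, with a Spearman correlation of -0.43 between GC content and log2 fold change over 12600 genes, against -0.11 over 12935 genes in THP-1. The 11 lower genes had a median GC content of 51.6% and the other 32 of 48.0%. With a GC term fitted to each library, chosen after seeing the data, 10 were lower in H1299, of which 8 were among the 11 (MCM2, E2F1 and TK1 were not, MCM6 and CCNE2 were added). In THP-1 the same term gave 36 higher and 2 lower. Among all genes it gave 1564 higher and 1628 lower of 12600 in H1299, and 4189 higher and 4459 lower of 12935 in THP-1. In bulk RNA, fewer cells in S phase and less of these transcripts per cell cannot be told apart.

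**Figure D2:**
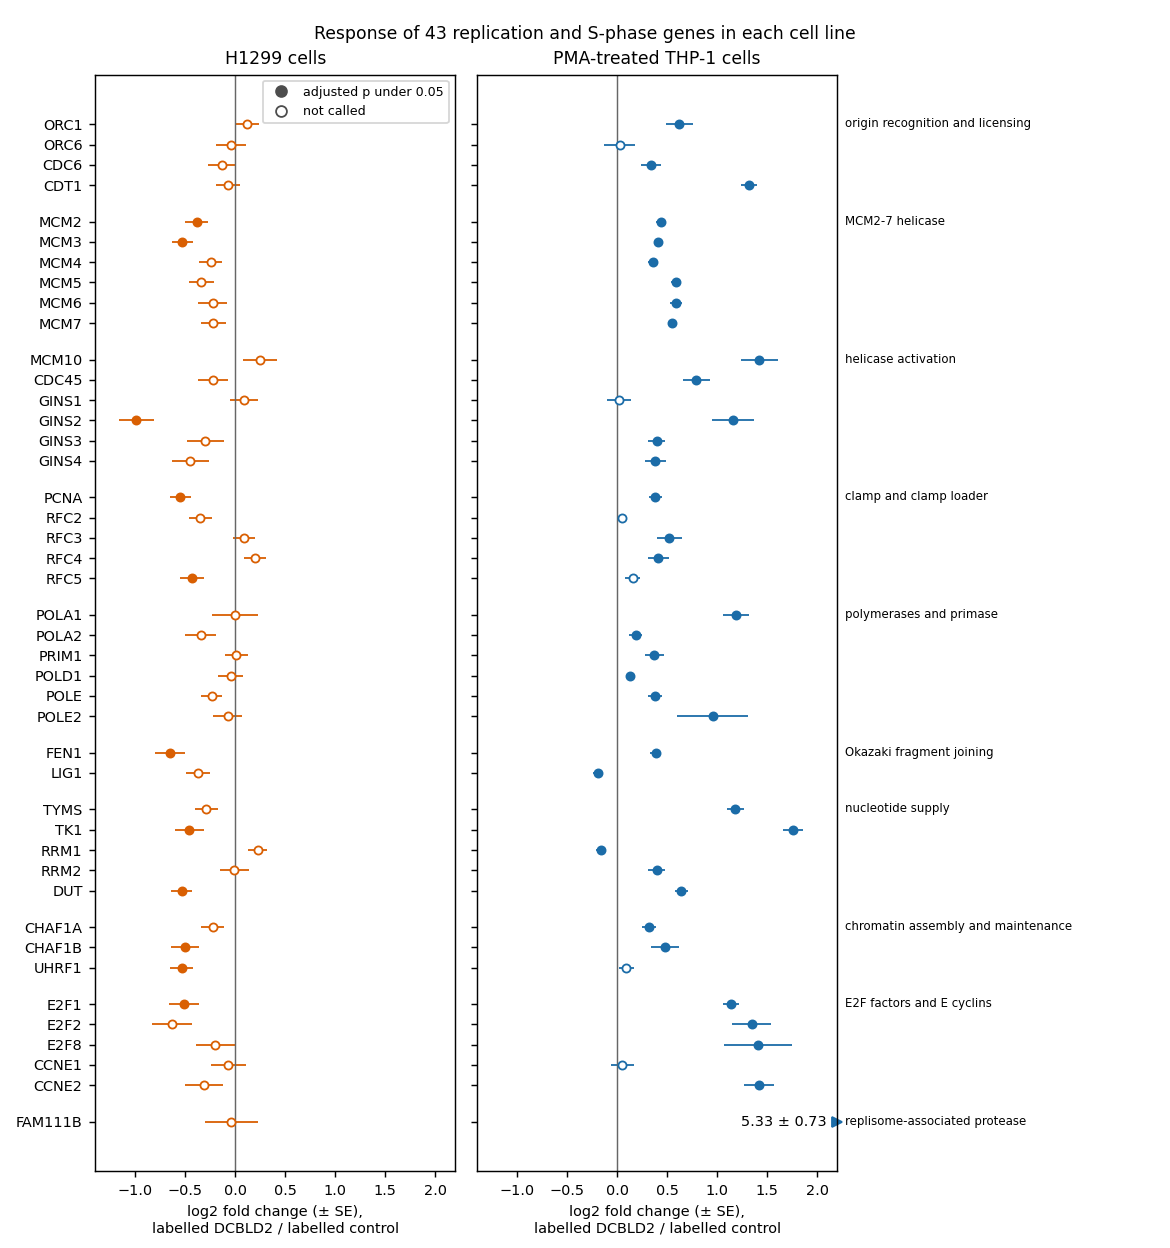
Log2 fold change (x axis, ± SE, 3 libraries against 3) of the 43 genes (rows, by role) for DCBLD2-labelled over control-labelled cells, in H1299 (left) and PMA-treated THP-1 (right); filled points passed an adjusted p under 0.05. Filled points lie left of 0 for 11 genes in H1299 and right of 0 for 35 genes in THP-1, where FAM111B at 5.33 ± 0.73 lies beyond the axis.

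Origin recognition and licensing showed the gap between the lines at CDT1, the loader that brings the helicase to origins. CDT1 (ENSG00000167513) had 15.5, 13.2 and 13.7 TPM in DCBLD2-labelled THP-1, against 5.83, 5.61 and 6.04 TPM in control-labelled THP-1. Every DCBLD2-labelled library was more than 2 times above every control-labelled one (log2 fold change 1.32 ± 0.08, SE; adjusted p = 9.88e-14). In H1299 it had 98.1, 98.7 and 114 TPM in the DCBLD2-labelled libraries and 101, 113 and 115 TPM in the control-labelled ones, and these overlapped (-0.08 ± 0.12, adjusted p = 0.672). ORC1, a subunit of the origin recognition complex, had 3.51, 3.25 and 4.0 TPM in DCBLD2-labelled THP-1 and 2.13, 2.41 and 2.59 TPM in control-labelled THP-1, and it rose by 0.62 on the log2 scale (adjusted p = 0.000170). In H1299, where ORC1 was the role's one gene above 0 (0.12 ± 0.12, adjusted p = 0.494), it had 21.9, 19.5 and 16.5 TPM in DCBLD2-labelled H1299 against 17.4, 16.7 and 18.7 TPM in control-labelled H1299. CDC6, which helps load the helicase, had 5.64, 5.45 and 8.26 TPM in DCBLD2-labelled THP-1 and 4.69, 6.48 and 5.55 TPM in control-labelled THP-1. Those TPM values overlapped although the count test called the gene higher (0.33 ± 0.10, adjusted p = 0.00425). CDC6 had 50.3, 39.1 and 31 TPM in DCBLD2-labelled H1299 against 43.3, 35.3 and 43.5 TPM in control-labelled H1299 (-0.14 ± 0.14, adjusted p = 0.499). ORC6, another subunit of that complex, passed the test in neither line, with 0.02 ± 0.15 in THP-1 and -0.05 ± 0.15 in H1299.

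The 6 subunits of the MCM2-7 ring form the replicative helicase. All 6 were higher in DCBLD2-labelled THP-1, with log2 fold changes between 0.35 and 0.59, and in H1299 all 6 were below 0, with 2 called lower. Of all genes tested, 34.5% were higher in DCBLD2-labelled THP-1 and 10.6% lower in DCBLD2-labelled H1299. With the H1299 spread, MCM4 lost its THP-1 call. MCM7 had 51.5, 50.9 and 51.1 TPM in DCBLD2-labelled THP-1, against 35.1, 38.2 and 34.1 TPM in control-labelled THP-1 (0.55 ± 0.04, adjusted p = 7.41e-12). MCM5 had 43.9, 52.9 and 51.2 TPM in DCBLD2-labelled THP-1 against 33.8, 30.4 and 26.5 TPM in control-labelled THP-1 (0.59 ± 0.05, adjusted p = 1.84e-11). MCM3 had 33.7, 35.7 and 35.2 TPM in DCBLD2-labelled THP-1 against 27.6, 28.7 and 29.4 TPM in control-labelled THP-1 (0.41 ± 0.04, adjusted p = 1.96e-09). The THP-1 groups stood apart for all 6 subunits, with the DCBLD2-labelled libraries above, beside 29.9% of all genes tested. In H1299 it was MCM3 that moved most, with 95.3, 82.1 and 76.1 TPM in the DCBLD2-labelled libraries, against 106, 116 and 113 TPM in the control-labelled ones (-0.53 ± 0.11, adjusted p = 0.0118). MCM2 had 137, 112 and 124 TPM in DCBLD2-labelled H1299 and 148, 169.6 and 166 TPM in control-labelled H1299 (-0.39 ± 0.12, adjusted p = 0.0410), and its call was lost without any one of 5 of the 6 libraries. MCM5 in H1299 had 101, 71.1 and 83 TPM in DCBLD2-labelled H1299 against 102, 128 and 114 TPM in control-labelled H1299, groups that just failed to overlap, and did not pass the test (-0.34 ± 0.12, adjusted p = 0.0758). MCM4, MCM6 and MCM7 lay between -0.25 and -0.22 in H1299, with overlapping groups.

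Among the factors that switch the helicase on, GINS2 had the largest fall of all 43 genes in H1299. GINS2 (ENSG00000131153, chromosome 16, 85676198 to 85690073, minus strand, GRCh38), a subunit of the GINS complex that binds the MCM ring, had 25.8, 16.2 and 18.8 TPM in DCBLD2-labelled H1299, against 35.7, 42.4 and 41.7 TPM in control-labelled H1299. The groups did not overlap, and the call held without any single library (-0.99 ± 0.17, adjusted p = 0.00639; without 1 library between 0.00107 and 0.0336). In THP-1 GINS2 went the other way, with 1.99, 1.79 and 1.83 TPM in the DCBLD2-labelled libraries and 1.03, 0.74 and 0.779 TPM in the control-labelled ones (1.16 ± 0.21, adjusted p = 2.75e-05). The other GINS subunits were not called in H1299. GINS4 had 20.9, 15.6 and 16.6 TPM in DCBLD2-labelled H1299 and 20.7, 25.9 and 27.7 TPM in control-labelled H1299, which overlapped through replicate 1 of each group (-0.45 ± 0.19, adjusted p = 0.112). GINS3 had 15, 9.26 and 11.1 TPM in DCBLD2-labelled H1299 against 13.1, 14.3 and 17 TPM in control-labelled H1299 (-0.30 ± 0.18, adjusted p = 0.265). In THP-1 both were called higher, at 0.38 and 0.40, but the TPM values of GINS4 overlapped there. Both lost the THP-1 call with 12 libraries in 1 fit and with the H1299 spread, and GINS4 also with limma. GINS1 had 28.2, 22.1 and 21.7 TPM in DCBLD2-labelled H1299 and 19.1, 23.6 and 26.5 TPM in control-labelled H1299, and it passed in neither line (0.09 ± 0.14 in H1299 and 0.02 ± 0.12 in THP-1).

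MCM10, which binds the activated helicase, had 1.73, 2.02 and 1.68 TPM in DCBLD2-labelled THP-1, against 0.765, 1.41 and 0.624 TPM in control-labelled THP-1 (1.42 ± 0.19, adjusted p = 2.44e-07). These are low levels, and control replicate 2 came close to the DCBLD2-labelled libraries. In H1299 MCM10 had 15.9, 10.9 and 9.98 TPM in the DCBLD2-labelled libraries and 13.1, 8.13 and 10.7 TPM in the control-labelled ones, on the positive side but within the spread (0.25 ± 0.17, adjusted p = 0.320). CDC45, the partner of GINS in the working helicase, had 5.48, 5.51 and 6.1 TPM in DCBLD2-labelled THP-1 and 3.05, 3.92 and 3.55 TPM in control-labelled THP-1 (0.79 ± 0.14, adjusted p = 1.39e-05). In H1299 its fold change was -0.22 ± 0.15 and it was not called.

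**Figure D3:**
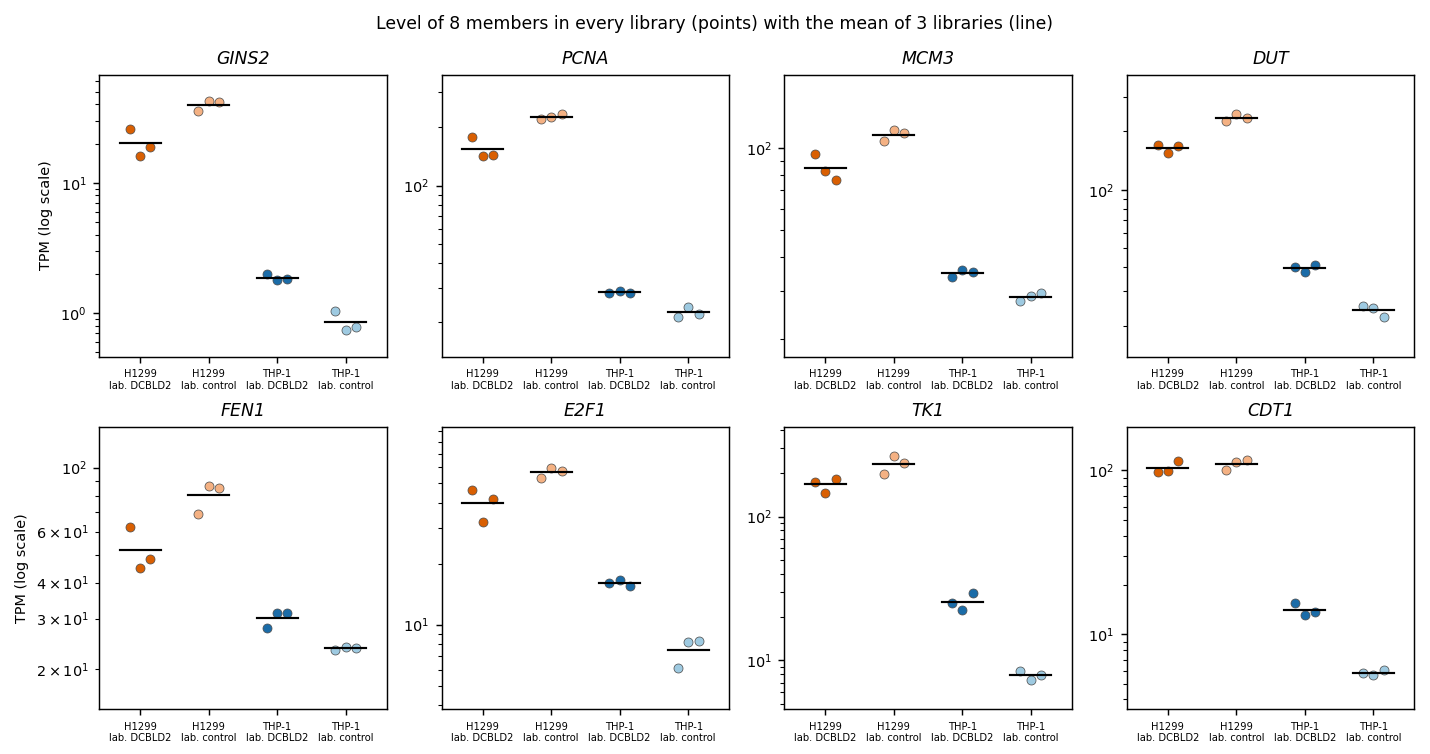
TPM on a log axis (y) of 8 genes in each library (points) of the 4 groups (x axis), with lines at the mean of 3 libraries. GINS2, PCNA, MCM3, DUT, FEN1, E2F1 and TK1 are lower in DCBLD2-labelled than in control-labelled H1299 and higher in DCBLD2-labelled than in control-labelled THP-1, while the CDT1 groups overlap in H1299.

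PCNA, the sliding clamp that holds polymerases on DNA, is on chromosome 20, 5114953 to 5126626, minus strand (GRCh38). It had 178, 142 and 143 TPM in DCBLD2-labelled H1299, against 219.5, 223 and 231 TPM in control-labelled H1299 (-0.55 ± 0.11, adjusted p = 0.00968). In THP-1 it had 28.3, 28.9 and 28.2 TPM in the DCBLD2-labelled libraries and 21.4, 24 and 22.1 TPM in the control-labelled ones (0.38 ± 0.07, adjusted p = 1.56e-05). The groups stood apart in both lines, in opposite order. Of the RFC subunits, which load the clamp, 1 passed the test in H1299. RFC5 had 53.9, 46.2 and 44.1 TPM in DCBLD2-labelled H1299, against 55.1, 64.6 and 65.7 TPM in control-labelled H1299 (-0.43 ± 0.12, adjusted p = 0.0341). RFC2 had 107, 94.1 and 96.5 TPM in DCBLD2-labelled H1299 against 111, 138 and 129 TPM in control-labelled H1299 (-0.35 ± 0.12, adjusted p = 0.0548). RFC5 passed the test and RFC2 came close to it, and neither overlapped. The call of RFC5 was lost without any one of 3 of the 6 H1299 libraries. RFC3 had 48.1, 43.3 and 38 TPM in DCBLD2-labelled H1299 against 39.6, 36.9 and 43.6 TPM in control-labelled H1299 (0.08 ± 0.11). RFC4 had 81, 78.2 and 64 TPM in DCBLD2-labelled H1299 against 60.7, 56.1 and 71.1 TPM in control-labelled H1299 (0.20 ± 0.11). These subunits lay on the positive side, with overlapping groups, and were not called. In THP-1 RFC3 and RFC4 were called higher. RFC3 had 5.36, 6.17 and 6.11 TPM in DCBLD2-labelled THP-1, against 4.27, 4.79 and 3.51 TPM in control-labelled THP-1 (0.52 ± 0.12, adjusted p = 0.000696). RFC4 had 12.6, 15.1 and 15.3 TPM in DCBLD2-labelled THP-1 against 10.7, 10.2 and 10.2 TPM in control-labelled THP-1 (0.41 ± 0.11, adjusted p = 0.00147). RFC2 and RFC5 were at 0.05 ± 0.05 and 0.15 ± 0.08 there, and neither was called.

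Polymerases and primase were higher in DCBLD2-labelled THP-1 for 6 of 6 genes, beside 34.5% of all genes. In H1299 0 of 6 were called, beside 10.3% higher and 10.6% lower among all genes. That count is no result about the role. There 0 were also under an unadjusted p of 0.05, and DESeq2 and limma called 0. POLA2 was called lower without replicate 1 of DCBLD2-labelled H1299 (adjusted p = 0.0495), and POLE without replicate 1 of control-labelled H1299 (adjusted p = 0.0446). With the H1299 spread, POLA2, POLD1, POLE and PRIM1 lost their THP-1 call. POLA1, the catalytic subunit of polymerase alpha, had 2.1, 2.5 and 2.15 TPM in DCBLD2-labelled THP-1, against 1.18, 0.951 and 0.966 TPM in control-labelled THP-1 (1.19 ± 0.13, adjusted p = 1.47e-08). POLE, the catalytic subunit of polymerase epsilon, had 5.89, 6.54 and 5.51 TPM in DCBLD2-labelled THP-1 against 4.33, 4.6 and 4.62 TPM in control-labelled THP-1 (0.38 ± 0.07, adjusted p = 2.31e-05). The small primase subunit PRIM1 had 11.6, 12.9 and 12.2 TPM in DCBLD2-labelled THP-1 against 9.5, 9.34 and 9.26 TPM in control-labelled THP-1 (0.37 ± 0.09, adjusted p = 0.000898). For these 3 genes every DCBLD2-labelled THP-1 library lay above every control-labelled one. POLE2, an accessory subunit of polymerase epsilon, rose with a wide error (0.95 ± 0.35, adjusted p = 0.0198), and it lost the call without replicate 3 of DCBLD2-labelled THP-1 (0.62, adjusted p = 0.160) and without replicate 2 or 3 of control-labelled THP-1. POLA2 and POLD1 passed with small changes (0.18 and 0.13) and with TPM values that overlapped. POLD1 was at -0.01 once the GC term was fitted. In H1299 POLE had 30.5, 26.6 and 25.1 TPM in the DCBLD2-labelled libraries and 28.1, 32.2 and 33.9 TPM in the control-labelled ones (-0.23 ± 0.11, adjusted p = 0.135). POLA2 had 56.7, 39 and 40.9 TPM in DCBLD2-labelled H1299 against 49.3, 57.6 and 63.8 TPM in control-labelled H1299 (-0.35 ± 0.16, adjusted p = 0.137). POLE2 had 20.2, 16.5 and 15.3 TPM in DCBLD2-labelled H1299 against 16.4, 15 and 21.1 TPM in control-labelled H1299 (-0.07 ± 0.14, adjusted p = 0.742). In all 3 the groups overlapped. PRIM1, with 57.2, 49.7 and 49.2 TPM in DCBLD2-labelled H1299 against 51.1, 45.2 and 58.7 TPM in control-labelled H1299, had a fold change of 0.01 ± 0.12.

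Okazaki fragments, the short pieces of the lagging strand, are trimmed by the FEN1 nuclease and sealed by the ligase LIG1. FEN1 had 62.4, 45.1 and 48.2 TPM in DCBLD2-labelled H1299, against 69.1, 86.5 and 85 TPM in control-labelled H1299 (-0.65 ± 0.15, adjusted p = 0.0159). It had 27.8, 31.3 and 31.4 TPM in DCBLD2-labelled THP-1 against 23.4, 24 and 23.7 TPM in control-labelled THP-1 (0.38 ± 0.05, adjusted p = 4.85e-07). Its groups stood apart in both lines, in opposite order. LIG1 was one of the 2 genes that fell in THP-1, with 17.6, 15.6 and 16.2 TPM in the DCBLD2-labelled libraries and 19, 19 and 18.8 TPM in the control-labelled ones (-0.19 ± 0.05, adjusted p = 0.00253). Its H1299 values of 26.6, 28.8 and 25.2 TPM in the DCBLD2-labelled libraries and 29.8, 37.9 and 36.1 TPM in the control-labelled ones did not overlap either, just short of the threshold (-0.37 ± 0.12, adjusted p = 0.0526).

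Nucleotide supply held the largest rise in THP-1 apart from FAM111B. TK1, the cytosolic thymidine kinase (ENSG00000167900, chromosome 17, 78174075 to 78187233, minus strand, GRCh38), had 25.1, 22.5 and 29.3 TPM in DCBLD2-labelled THP-1, against 8.48, 7.35 and 7.96 TPM in control-labelled THP-1. It rose by 1.76 on the log2 scale, or 3.39-fold (SE 0.10, adjusted p = 1.81e-14). TYMS, the thymidylate synthase that makes dTMP, had 19, 18.1 and 20.8 TPM in DCBLD2-labelled THP-1 against 8.5, 8.38 and 8.99 TPM in control-labelled THP-1 (1.18 ± 0.08, adjusted p = 1.87e-12). DUT, the dUTPase that keeps uracil out of DNA, had 40.00, 37.8 and 41.2 TPM in DCBLD2-labelled THP-1 against 25.3, 24.7 and 22.2 TPM in control-labelled THP-1 (0.64 ± 0.06, adjusted p = 2.02e-09). For all 3 genes the THP-1 groups stood apart. In H1299 DUT and TK1 were lower. DUT had 169.7, 155 and 168 TPM in DCBLD2-labelled H1299, against 224, 244 and 235 TPM in control-labelled H1299 (-0.53 ± 0.11, adjusted p = 0.0101). TK1 had 174, 146 and 182 TPM in DCBLD2-labelled H1299 against 197, 263 and 236 TPM in control-labelled H1299 (-0.46 ± 0.15, adjusted p = 0.0486). The call of TK1 was lost without any one of 4 of the 6 H1299 libraries, and that of DUT without 1 of them. TYMS had 278, 249 and 253 TPM in DCBLD2-labelled H1299 against 273, 336 and 341 TPM in control-labelled H1299 and did not pass (-0.29 ± 0.12, adjusted p = 0.100). Ribonucleotide reductase makes deoxyribonucleotides. RRM1, its large subunit, had 18, 17.8 and 17.8 TPM in DCBLD2-labelled THP-1, against 21.3, 20.2 and 19.9 TPM in control-labelled THP-1, and was the other gene that fell (-0.16 ± 0.05, adjusted p = 0.00459). It had 71.5, 67.4 and 58.7 TPM in DCBLD2-labelled H1299 and 57.5, 52.6 and 58.2 TPM in control-labelled H1299, the only gene whose H1299 groups stood apart in the positive direction, without passing the test (0.22 ± 0.09, adjusted p = 0.109). RRM2, its small subunit, rose by 0.39 in THP-1 and was at -0.01 ± 0.14 in H1299.

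Chromatin behind the fork is rebuilt by CAF-1, of which CHAF1A and CHAF1B are subunits, and its methylation is copied with the help of UHRF1. UHRF1 had 92.4, 75 and 73.7 TPM in DCBLD2-labelled H1299, against 107, 114 and 121 TPM in control-labelled H1299 (-0.54 ± 0.11, adjusted p = 0.0132). CHAF1B had 19, 14.1 and 13.9 TPM in DCBLD2-labelled H1299 against 20.4, 22.9 and 22.7 TPM in control-labelled H1299 (-0.50 ± 0.14, adjusted p = 0.0306). Its call was lost without any one of 3 of the 6 H1299 libraries. CHAF1A had 70.3, 53.2 and 58 TPM in DCBLD2-labelled H1299 against 61.7, 71.8 and 71 TPM in control-labelled H1299, which overlapped (-0.23 ± 0.12, adjusted p = 0.186). In THP-1 the subunits of CAF-1 were called and UHRF1 was not. CHAF1A had 10.3, 12.3 and 10.6 TPM in DCBLD2-labelled THP-1, against 9.1, 8.54 and 8.97 TPM in control-labelled THP-1 (0.32 ± 0.07, adjusted p = 0.000378). CHAF1B had 2.11, 1.8 and 1.98 TPM in DCBLD2-labelled THP-1 against 1.3, 1.62 and 1.42 TPM in control-labelled THP-1 (0.48 ± 0.14, adjusted p = 0.00419). UHRF1 had 6.87, 7.64 and 6.83 TPM in DCBLD2-labelled THP-1 against 7.21, 7.26 and 6.66 TPM in control-labelled THP-1 (0.09 ± 0.08, adjusted p = 0.289).

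E2F1 and E2F2 are activating E2F factors, E2F8 is a repressing one that acts late in S phase, and the E cyclins drive CDK2 at the entry to S phase. E2F1 (ENSG00000101412) had 16, 16.5 and 15.5 TPM in DCBLD2-labelled THP-1, against 6.14, 8.18 and 8.27 TPM in control-labelled THP-1 (1.14 ± 0.08, adjusted p = 4.24e-12). E2F2 had 1.03, 1.23 and 1.09 TPM in DCBLD2-labelled THP-1 against 0.416, 0.425 and 0.519 TPM in control-labelled THP-1 (1.34 ± 0.20, adjusted p = 1.40e-06). E2F8 had 0.671, 0.805 and 1.01 TPM in DCBLD2-labelled THP-1 against 0.451, 0.155 and 0.226 TPM in control-labelled THP-1 (1.41 ± 0.34). None of these groups overlapped. E2F8 passed the filter only through the DCBLD2-labelled libraries, with 33, 36 and 37 estimated reads there and 21, 6 and 9 in control-labelled THP-1. Its place among the 35 higher genes therefore adds nothing to these reads, and its difference between the lines rests on them too. Of the E cyclins 1 passed the test. CCNE2 had 5.68, 5.91 and 3.94 TPM in DCBLD2-labelled THP-1, against 2.47, 2.2 and 2.3 TPM in control-labelled THP-1 (1.42 ± 0.15, adjusted p = 4.58e-09), and CCNE1 was at 0.05 ± 0.12 and not called. In H1299 E2F1 had 46.3, 31.9 and 41.6 TPM in the DCBLD2-labelled libraries and 53.2, 59.2 and 57.4 TPM in the control-labelled ones (-0.51 ± 0.15, adjusted p = 0.0380). E2F2 had 9.27, 5.51 and 6.86 TPM in DCBLD2-labelled H1299 against 8.98, 11.9 and 12.4 TPM in control-labelled H1299 (-0.63 ± 0.20, adjusted p = 0.0509). CCNE2 had 10.1, 7.31 and 7.11 TPM in DCBLD2-labelled H1299 against 12.6, 7.47 and 11.5 TPM in control-labelled H1299 (-0.32 ± 0.19, adjusted p = 0.257). Of these, E2F1 passed the test and stood apart, but its call was lost without any one of 3 of the 6 H1299 libraries. E2F8 and CCNE1 were at -0.20 ± 0.20 and -0.07 ± 0.17 in H1299.

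FAM111B, a protease of the FAM111 family, was almost unread in control-labelled THP-1. It had 0.535, 0.448 and 0.557 TPM in DCBLD2-labelled THP-1, against 0, 0.026 and 0 TPM in control-labelled THP-1. These are 61 estimated reads over the 3 DCBLD2-labelled libraries and 1 read over the 3 control-labelled ones. Scaled for depth the ratio was 56.8, with an exact 95% interval from 9.82 to 2280 that covers counting error only. Its fitted log2 fold change of 5.33 ± 0.73 depends on the prior count. Because it passed the filter only through the group where it was high, its place among the 35 called genes adds nothing to these read counts, and its difference between the lines rests on the same reads. In H1299, with 7.02, 4.38 and 4.35 TPM in the DCBLD2-labelled and 8.29, 3.51 and 5.04 TPM in the control-labelled libraries, it was at -0.04 ± 0.26.

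Strand handling is not given in the sources used here, and 19 of the 43 genes share exon bases with another gene. The longest shared stretches are 1628 bases between CCNE2 and INTS8, 814 bases between GINS4 and an antisense gene, 774 bases between MCM2 and an antisense gene and 719 bases between TYMS and ENOSF1, all on opposite strands. Within these stretches, reads of a gene and its partner cannot be told apart unless strand was kept. On the same strand the longest shared stretches are 444 bases for POLA2, 159 for RRM2 and 133 for POLD1, which strand would not separate. MCM7 shares 216 bases with AP4M1 and FEN1 166 bases with TMEM258.

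A gene that passes in one line and not in the other is not thereby shown to differ, so the difference of the 2 responses was tested in one fit of all 12 libraries. The 2 contrasts are unlike in kind: H1299 cells differed by their own label, and THP-1 cells by the H1299 material they were kept with. Cell line and kind of contrast cannot be told apart in this difference. The THP-1 response exceeded the H1299 response for 32 of 43 genes and was below it for RRM1 alone, with 10 not called. Among all 14244 genes tested, 19.3% were higher and 19.5% lower. The median difference over the 43 was 0.79 on the log2 scale, against -0.03 over all genes. Apart from FAM111B, the largest differences were TK1 (2.22 ± 0.20, adjusted p = 3.68e-06), GINS2 (2.14 ± 0.29, adjusted p = 8.16e-05), E2F2 (1.97 ± 0.32, adjusted p = 0.000295) and CCNE2 (1.72 ± 0.26, adjusted p = 0.000160). RRM1 was at -0.39 ± 0.10 (adjusted p = 0.00536) and lost its call with the GC term. By direction, 9 genes were lower in DCBLD2-labelled H1299 and higher in DCBLD2-labelled THP-1, which are the 11 named above without RFC5 and UHRF1. A further 26 were called higher in THP-1 alone, and 0 were called lower in both. Among all genes tested, 10.6% were lower in DCBLD2-labelled H1299 and 34.5% higher in DCBLD2-labelled THP-1. The share of all genes with both calls was not counted, so these cross-counts are a description and no result about the 43. Across the 43 genes the fold changes of THP-1 and of H1299 had a Spearman correlation of -0.06, and of -0.02 over the 11631 genes tested in both lines. These points share libraries and are given as a description.

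The levels themselves were far lower in THP-1 than in H1299. In control-labelled cells, 42 of 43 genes were lower in THP-1 and 1, POLD1, was higher, beside 42.3% of 14244 genes higher and 43.6% lower. The median log2 difference was -2.62. Cell line, PMA and the H1299 material cannot be told apart in this comparison. Summed over the 43 genes, control-labelled THP-1 held 493.8 to 507.3 TPM, against 3583 to 4205 TPM in control-labelled H1299. DCBLD2-labelled THP-1 held 654.7 to 665.5 TPM, against 3045 to 3661 TPM in DCBLD2-labelled H1299, so the rise in THP-1 left the sum far below that of either H1299 group. The gap was wide for nucleotide supply, with TYMS at 8.5, 8.38 and 8.99 TPM in control-labelled THP-1 against 273, 336 and 341 TPM in control-labelled H1299 (-4.92 ± 0.12), and for RRM2 at 6.21, 5.25 and 5.8 TPM in control-labelled THP-1 against 109, 155 and 159.6 TPM in control-labelled H1299 (-4.44 ± 0.15). It was also wide for GINS2 (-5.26 ± 0.21) and for POLE2 (-4.44 ± 0.23). It was narrow for GINS3 (-0.37 ± 0.15, adjusted p = 0.0352), for LIG1 (-0.57 ± 0.10) and for CCNE1 (-0.91 ± 0.16). GINS3 lost its call without any one of 5 of the 6 control-labelled libraries. POLD1 had 35.1, 36.6 and 33.9 TPM in control-labelled THP-1, within the 31.5, 38.9 and 38 TPM of control-labelled H1299, so its small difference (0.23 ± 0.10, adjusted p = 0.0423) stands on counts whose TPM overlapped. It was at -0.03 on log2(TPM + 1) with limma, and without any single control-labelled library other than replicate 2 of control-labelled H1299 it was not called.

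**Figure D4:**
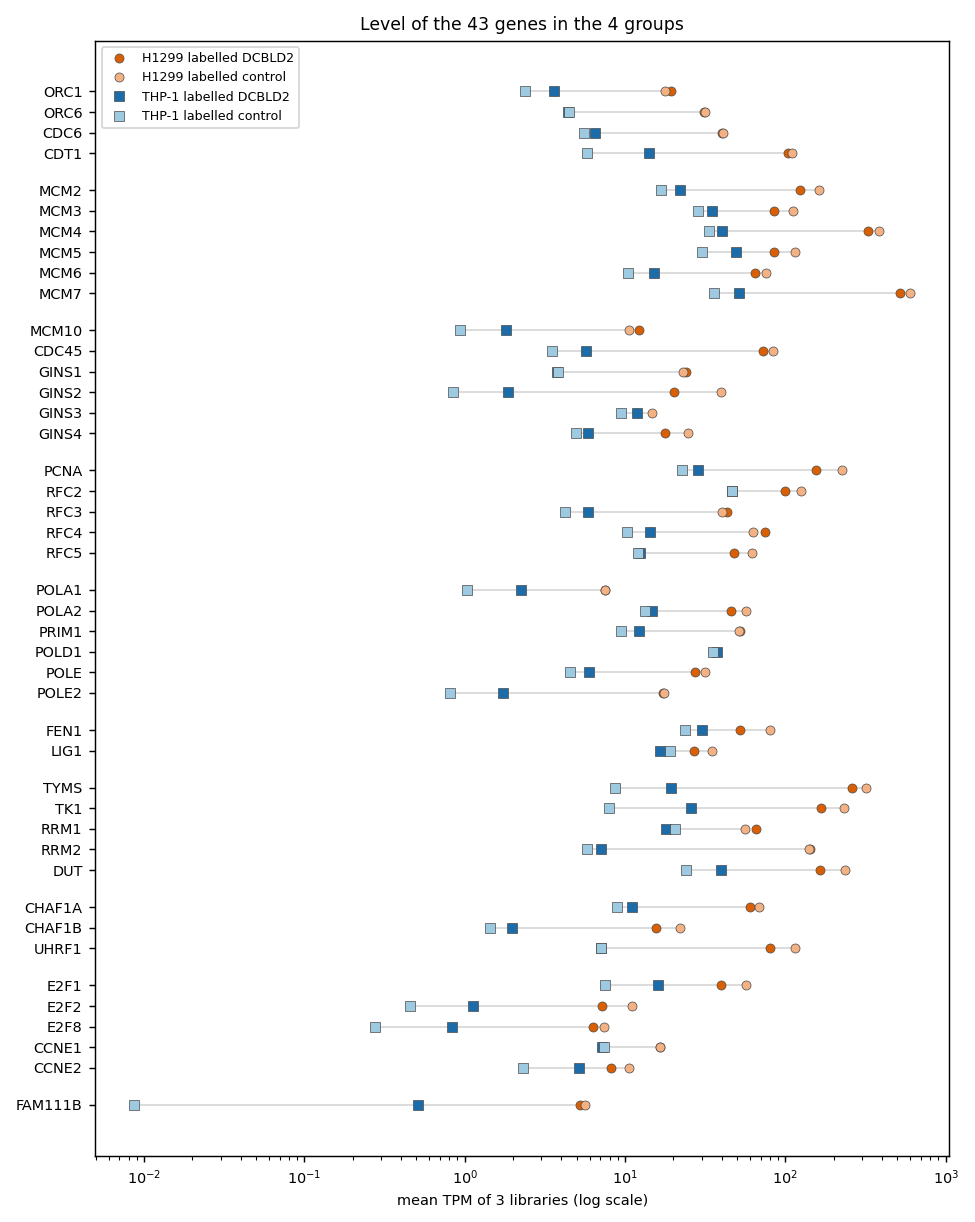
Mean TPM of 3 libraries on a log axis (x) of each of the 43 genes (rows) in DCBLD2-labelled and control-labelled H1299 (circles) and THP-1 (squares), with a grey line joining the control-labelled groups. The squares lie left of the circles for nearly all genes, POLD1 and GINS3 lying closest, and FAM111B in control-labelled THP-1, with 1 read in 3 libraries, lies far to the left.

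Levels also differed among the genes. The MCM7 and MCM4 subunits were the most abundant in H1299, at 519 ± 49.7 and 326 ± 51.1 TPM in DCBLD2-labelled H1299 and 599.9 ± 82.3 and 382 ± 21.5 TPM in control-labelled H1299 (mean ± SD, n = 3 each). In THP-1 MCM7 led in the DCBLD2-labelled libraries with 51.2 ± 0.344 TPM, followed by MCM5 with 49.3 ± 4.77 TPM, which lay within its spread, and RFC2 led in the control-labelled ones with 46.3 ± 2.55 TPM. At the low end of the THP-1 levels stood E2F8, E2F2 and FAM111B, with at most 1.23 TPM in any THP-1 library.

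For RNA from H1299 cells in the THP-1 libraries, 20 carcinoma genes were read. In each THP-1 group 13 of the 20 averaged over 1 TPM. Whether THP-1 cells make these transcripts themselves was not tested, so the sum of the list is no measure of H1299 RNA. The summed level of the 20 was 417.3 to 429.5 TPM in DCBLD2-labelled THP-1, against 449.5 to 467.4 TPM in control-labelled THP-1, and 3899 to 4614 TPM in H1299. As a share of reads the direction was the opposite, with 0.0806% to 0.0824% in DCBLD2-labelled THP-1 and 0.0781% to 0.0792% in control-labelled THP-1. The THP-1 test held 13 of them, with 4 higher and 6 lower in the DCBLD2-labelled libraries. KRT18, a keratin at 812 to 1431 TPM in H1299, had 1.63, 0.879 and 0.533 TPM in DCBLD2-labelled THP-1 and 0.164, 0.25 and 0.198 TPM in control-labelled THP-1. KRT8 had 0.657, 0.494 and 0.422 TPM in DCBLD2-labelled THP-1 against 0.275, 0.48 and 0.094 TPM in control-labelled THP-1. LIN28B was close to 0 in every THP-1 library. Mitochondrial transcripts took 2.46% to 2.58% of reads in DCBLD2-labelled THP-1 and 3.48% to 3.51% in control-labelled THP-1, and ribosomal protein transcripts 5.28% to 5.56% against 3.85% to 3.88%. The count of 35 higher genes was 35 when both classes were left out of the library sizes. Any further part of these differences in the results was not tested.

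Other genes of replication and of the G1/S switch were read from a list of 70. In DCBLD2-labelled THP-1, 38 of the 68 tested rose and 13 fell (median 0.22). That is 55.9% and 19.1%, beside 34.5% and 33.6% of all genes. Among the higher ones with the smallest p were the cyclin D kinase CDK6 (0.89 ± 0.03), the thymidine phosphorylase TYMP (1.23 ± 0.04), the dNTP hydrolase SAMHD1 (1.19 ± 0.04) and the B-MYB factor MYBL2 (1.73 ± 0.08). CDK6 had 21.6, 22.1 and 22.5 TPM in DCBLD2-labelled THP-1 against 12, 12 and 12.7 TPM in control-labelled THP-1. MYBL2 had 15.1, 15.1 and 14.5 TPM in DCBLD2-labelled THP-1 against 4.88, 4.4 and 4.49 TPM in control-labelled THP-1, and its groups lay far apart. The lower ones were the repressing factor E2F6 (-0.55 ± 0.07), the kinase CDK2 (-0.37 ± 0.05), the CDK inhibitor CDKN1B (-0.41 ± 0.06), the repressing factor E2F7 (-0.27 ± 0.04) and the origin subunit ORC2 (-0.72 ± 0.11). Those named had adjusted p-values of 4.70e-06 or less.

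In DCBLD2-labelled H1299 the list had 9 of 69 higher and 5 lower (median -0.06). That is 13% higher and 7.25% lower, near the 10.3% and 10.6% of all genes, so the counts are no result about the list, and the genes named are single calls. The growth regulator MYC had 234, 241 and 224 TPM in DCBLD2-labelled H1299, against 154, 160.2 and 165 TPM in control-labelled H1299 (0.54 ± 0.09, adjusted p = 0.00459). E2F5 (0.61 ± 0.12), the origin-firing kinase CDC7 (0.71 ± 0.17), its activator DBF4 (0.56 ± 0.16) and ORC3 (0.63 ± 0.16) were also higher. The CDK inhibitor CDKN2C had 28.3, 28.8 and 28.7 TPM in DCBLD2-labelled H1299 against 39.7, 54.3 and 42.2 TPM in control-labelled H1299 and was lower (-0.77 ± 0.15, adjusted p = 0.0101). So were the cyclin CCND1 (-0.46 ± 0.11), SAMHD1 (-0.41 ± 0.10), the histone mRNA factor SLBP (-0.28 ± 0.09) and the histone chaperone ASF1B (-0.42 ± 0.13). Without replicate 2 of DCBLD2-labelled H1299, 1 gene of the list was called, and with the GC term 5 were higher and 10 lower.

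Genes of G2 and mitosis, in a list of 42, had 13 higher calls, 1 lower and 28 not called in DCBLD2-labelled H1299 (median 0.17). That is 31% higher and 2.38% lower, beside 10.3% and 10.6% of all genes, while the replication genes had a median of -0.23. The higher ones with the smallest p were the spindle factor DLGAP5 (0.89 ± 0.16), the topoisomerase TOP2A (0.79 ± 0.17), the cytokinesis protein ANLN (0.72 ± 0.16), the kinase NEK2 (0.58 ± 0.14) and the kinetochore protein NUF2 (0.52 ± 0.12), with adjusted p-values between 0.00710 and 0.0196. DLGAP5 had 37, 39.4 and 27.9 TPM in DCBLD2-labelled H1299 against 19.7, 15.6 and 22.8 TPM in control-labelled H1299. The mitotic transcription factor FOXM1 was lower, with 136, 122 and 124 TPM in DCBLD2-labelled H1299 against 157, 200.1 and 199 TPM in control-labelled H1299 (-0.55 ± 0.12, adjusted p = 0.0153). The summed level of the 43 replication genes was 0.721, 0.621 and 0.693 times that of the 42 mitotic genes in the 3 DCBLD2-labelled H1299 libraries, against 1.0, 0.892 and 0.844 times in the control-labelled ones. These ratios did not overlap. The mitotic genes had a median GC content of 43.8% and the 43 genes of 48.7%, and the GC term gave 10 mitotic genes higher and 1 lower (median 0.07). Without replicate 1 or without replicate 2 of DCBLD2-labelled H1299, 2 and 1 of the 42 mitotic genes were higher. Over all genes, 559 of 12925 and 184 of 12915 were higher in those fits, shares near those of the list. Without replicate 1 of control-labelled H1299, there were 13 higher mitotic calls and 6 lower ones (median 0.04). Over all genes, 1825 were then higher and 1333 lower of 12894.

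In THP-1 most genes of both lists rose. The 42 mitotic genes had 38 higher and 2 lower in the DCBLD2-labelled libraries (median 0.88), that is 90.5% and 4.76%, beside 34.5% and 33.6% of all genes. SMC4, a condensin subunit, was at 0.89 ± 0.06, the mitotic kinase CDK1 at 1.62 ± 0.12, CDC20, the activator of the anaphase-promoting complex, at 0.88 ± 0.07, the condensin subunit NCAPG at 1.56 ± 0.12 and TOP2A at 1.27 ± 0.10. Their adjusted p-values were 2.59e-11 or less. CDK1 had 10.6, 10.3 and 8.7 TPM in DCBLD2-labelled THP-1 against 3.56, 3.4 and 2.91 TPM in control-labelled THP-1. The separase ESPL1 (-0.75 ± 0.05) and the kinase AURKA (-0.81 ± 0.05) fell. The ratio of replication to mitotic genes was 2.50, 2.53 and 2.54 in DCBLD2-labelled THP-1 and 2.79, 2.61 and 2.61 in control-labelled THP-1, so the mitotic sum rose somewhat more.

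**Figure D5:**
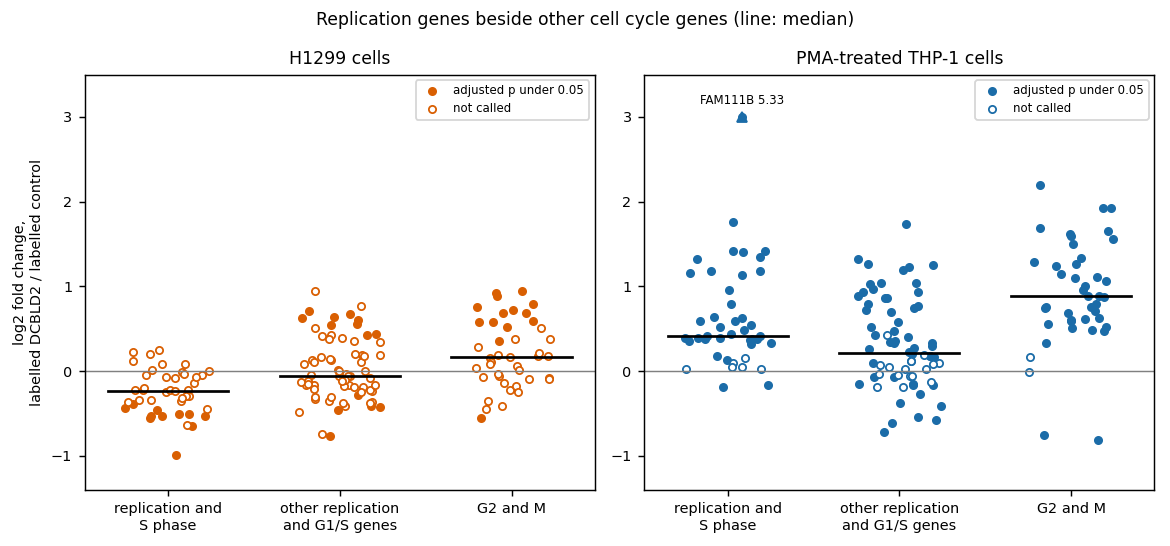
Log2 fold change (y axis) of each gene (points) of 3 lists in H1299 (left) and PMA-treated THP-1 (right), DCBLD2-labelled over control-labelled, with the median as a line and filled points at an adjusted p under 0.05. In H1299 the medians are -0.23 for replication genes, -0.06 for other replication and G1/S genes and 0.17 for mitotic genes, and in THP-1 they are 0.41, 0.22 and 0.88; FAM111B at 5.33 is drawn at the edge.

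The E2F-type motif was found both among genes that were called and among genes that were not. In H1299, 8 of the 11 lower genes (72.7%) and 15 of 26 genes that were not called and had a promoter (57.7%) held it. In THP-1, 18 of 29 higher genes (62.1%) and 5 of the 8 others (62.5%) did. Of the list of 70, 18 of 53 genes with a promoter (34%) held the motif, and of the mitotic list 5 of 36 (13.9%).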

How the data were processed

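Per the labels' protocols, Trizol was used for RNA and the NEBNext Ultra kit for libraries. The genome build was hg38, and the tools listed are RSEM, StringTie 1.3.1, HISAT2, Bowtie2 2.2.8 and fastp 0.18.0, per the submitters' processing notes. For every library the authors deposited a TPM value and an estimated count of each gene. TPM gave the levels. The estimated counts, deposited without normalization, were rounded to whole numbers for the tests.

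edgeR 4.0.16 in R 4.3.3 was used with its quasi-likelihood test, two-sided, after TMM scaling and filterByExpr (minimum 10 counts). Each cell line had its own fit of 6 libraries, and the comparison of the lines and the difference of responses came from 1 fit of 12. Benjamini-Hochberg adjustment ran over all genes tested, with calls under 0.05. Errors of log2 fold changes are SE. No label ties a replicate to a culture of its own, so the p-values cover the spread between these libraries, which may be technical. All replicate pairs differed by more than sampling noise (chi-square per gene 1.55 to 2.3 in THP-1 and 10.8 to 36.6 in H1299), and each library was counted.

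The members, the lists and the tests were chosen with earlier results of these data known. Library values are given for up to 3 members of each role with the smallest p in each line and for members against the direction of their role. Of the other lists, up to 5 called genes per direction with the smallest p are named. One gene that this rule names is not reported here. Promoters on chromosome 8 were not printed. Alternatives were DESeq2 1.42.0, its size factors, no filter, limma 3.58.1 on log2(TPM + 1), a replicate block, leaving out each library, 1 fit of 12 libraries, leaving out mitochondrial and ribosomal protein genes, and the H1299 spread in THP-1. Offsets for GC content, and for GC content and length (lowess, span 0.3, GENCODE 29 transcripts), were added after seeing the data. The steps were tested on simulated data. Protein sequences were not used here.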

Additional observations from a re-analysis of the deposited data

Results flagged for a closer look

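For 33 of the 43 genes the change in THP-1 differed from that in H1299 by a test of the difference itself, in edgeR's fit of 12 libraries. Values here are the log2 response in THP-1 minus that in H1299, both as DCBLD2-labelled over control-labelled. The label is that of the cells in H1299 and that of the H1299 material in THP-1, so line and kind of contrast cannot be told apart. In licensing and the helicase, this difference was 0.49 for ORC1, 1.38 for CDT1, 0.81 for MCM2, 0.93 for MCM3, 0.59 for MCM4, 0.92 for MCM5, 0.79 for MCM6 and 0.76 for MCM7. In helicase activation it was 1.16 for MCM10, 1.0 for CDC45, 2.14 for GINS2, 0.68 for GINS3 and 0.82 for GINS4. At the fork it was 0.92 for PCNA, 0.38 for RFC2, 0.58 for RFC5, 1.17 for POLA1, 0.52 for POLA2, 0.60 for POLE, 1.01 for POLE2 and 1.03 for FEN1. In nucleotide supply it was 1.47 for TYMS, 2.22 for TK1, 1.17 for DUT and -0.39 for RRM1. In chromatin it was 0.53 for CHAF1A, 0.97 for CHAF1B and 0.62 for UHRF1, and among regulators 1.63 for E2F1, 1.97 for E2F2, 1.6 for E2F8 and 1.72 for CCNE2. FAM111B had 5.38, a fitted value that rests on 1 read in control-labelled THP-1. The value of E2F8 rests on 21, 6 and 9 reads in control-labelled THP-1.

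The difference of ORC1, GINS3, GINS4, RFC2, POLA2 or POLE2 was no longer called without at least 1 of the 12 libraries, and the other 27 kept their call without any single library. RRM1 lost its call with the GC offset. Of all genes tested, 19.3% were higher and 19.5% lower in this test.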

How the results depend on the processing

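The 42 lower genes of THP-1 against H1299 and the 32 genes with a higher response in THP-1 stayed within 1.5 times of their counts under every alternative run. The single higher gene, POLD1, was not called (0 genes) with the replicate block, no filter, limma, either offset or without 5 of the 6 control-labelled libraries (range 0 to 1). Its log2 value was -0.033 with limma (adjusted p = 0.722), where the values of all genes moved by a median of -0.26. With the GC and length offset POLD1 was at -0.0278 (adjusted p = 0.740), and the cause was not tested. In THP-1 its change was -0.013 with the GC offset (adjusted p = 0.778). The 11 lower genes of H1299 became 7 with the replicate block, 17 with 12 libraries in 1 fit (and 1 higher, RRM1), 14 with DESeq2 and 1 to 18 without single libraries. Over all genes the lower calls moved from 1356 of 12773 to 816 with the replicate block and 1538 with DESeq2. With 12 libraries in 1 fit they were 2384 of 14244. The 35 higher genes of THP-1 became 22 with the H1299 spread and 29 with 12 libraries in 1 fit, and stayed within 31 to 36 otherwise. Over all genes the higher calls were 2358 of 13120 and 2978 of 14244 under those 2 settings, against 4528 of 13120. The 2 lower ones, LIG1 and RRM1, became 0 under those 2 settings and with the GC and length offset. RRM1, the 1 gene with a lower response in THP-1, became 0 with either offset. With the replicate block the differing responses became 25 higher and 1 lower. Same-numbered libraries correlated between -0.41 and -0.11 in H1299 and between 0.02 and 0.05 in THP-1, so the numbers did not pair them, and in neither line did every library correlate best with its own number. DCBLD2-labelled H1299 replicates 3, 2 and 1 correlated at 0.521, 0.37 and 0.365 with control-labelled replicates 2, 1 and 3. H1299 libraries thus shared a pattern across the groups, which the replicate block, set by number, does not match. Of 2623 values of single genes, 2436 kept their direction and side of the threshold, 126 lost and 58 gained a call, and 3 reversed, all of POLD1. Depth limits FAM111B, E2F8, POLE2, E2F2, GINS2 and MCM10 in THP-1, each with at most 35 estimated reads in any control-labelled library.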

Other observations

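The regulators that gate entry to S phase stood at different levels in the lines, and those given here were chosen after their values were seen. CDKN1A, the CDK inhibitor p21, had 1499.6, 1541 and 1550.4 TPM in DCBLD2-labelled THP-1 against 1392, 1379.9 and 1367 TPM in control-labelled THP-1. It was slightly higher (0.18 ± 0.01, adjusted p = 1.27e-11) in the libraries in which the replication genes were higher. In H1299 it had 40.5, 38.5 and 48.2 TPM in the DCBLD2-labelled libraries and 81, 50.9 and 46.1 TPM in the control-labelled ones (-0.49 ± 0.20, adjusted p = 0.114). CDKN2A, the gene of p16 and ARF, had 0.239, 0.236 and 0 TPM in control-labelled THP-1 against 333, 305 and 280.1 TPM in control-labelled H1299. MYC had 25.4, 25.7 and 26.4 TPM in DCBLD2-labelled THP-1 against 19.98, 19.3 and 20.3 TPM in control-labelled THP-1 (0.40 ± 0.05, adjusted p = 1.71e-07), and it was also called higher in DCBLD2-labelled H1299. CDK4, a cyclin D kinase, had 192, 194 and 198 TPM in DCBLD2-labelled THP-1 against 168, 165 and 167 TPM in control-labelled THP-1 (0.26 ± 0.03, adjusted p = 1.20e-09) and was not called in H1299 (-0.19 ± 0.11, adjusted p = 0.252).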
